A study of Mus musculus with 9 samples.

Results

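Antioxidant enzymes were examined as 10 genes in mammary tumors of a BRCA-deficient mouse model: the superoxide dismutases Sod1, Sod2 and Sod3, the hydrogen peroxide and lipid peroxide scavengers Cat, Gpx1, Gpx3 and Gpx4, and the Nrf2-type enzymes Nqo1, Hmox1 and Gclc. They were chosen by symbol, as the rows of the count table whose Ensembl identifier carries 1 of these names, and all 10 were found among 35275 listed genes. All 10 were also among the 15821 genes that passed the filter on low counts. RNA sequencing covered 9 tumors, with 3 tumors in each of 3 groups, and the values used here are raw read counts per gene. All 9 tumors arose in Brca1Co/Co;MMTV-Cre;p53+/- mice, in which Cre under the mammary tumor virus promoter deletes the conditional Brca1 alleles in mammary epithelium and 1 p53 allele is missing in every cell. Animals of the control group were given saline, by vein according to the study. The i.v. TLZ tumors received free Talazoparib, an inhibitor of poly(ADP-ribose) polymerase, at 0.33 mg/kg by vein. The NanoTLZ tumors received the same dose, also by vein, packed into nanoparticles. Dosing began at a tumor diameter of 4 to 5 mm and was given 3 times a week for 5 doses. Free drug was dissolved in DMSO and then diluted in saline, NanoTLZ was diluted in saline, and tumors given DMSO alone or empty nanoparticles were not analysed here, so drug and carrier cannot be told apart in either treated group. Ages of the mice were not given in the labels. The labels do not tie the tumors to animals, but the study counts the sequenced groups in mice, as many as there are tumors, and the tumors were treated as independent samples.

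Superoxide, formed by respiration and by oxidases, is turned into hydrogen peroxide by the superoxide dismutases. Sod1 works in the cytosol with copper and zinc, Sod2 in mitochondria with manganese, and Sod3 is secreted and held in the matrix outside cells. Catalase, the glutathione peroxidases and the peroxiredoxins remove hydrogen peroxide, and Gpx4 reduces lipid peroxides in membranes and so guards against ferroptosis. The transcription factor Nrf2, encoded by Nfe2l2 and held down by Keap1, switches on Nqo1, Hmox1, Gclc and many other genes through antioxidant response elements.

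The first 75 bases of the Sod2 and Sod3 coding sequences are shown because they encode the ends that set where each enzyme goes. They were read from the principal transcripts of the GENCODE M21 annotation of GRCm38, as spliced coding sequence 5′ to 3′ on the sense strand, and the capitals mark the start codon.
Sod2: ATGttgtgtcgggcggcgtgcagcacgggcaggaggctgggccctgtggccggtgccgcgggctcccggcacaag
Sod3: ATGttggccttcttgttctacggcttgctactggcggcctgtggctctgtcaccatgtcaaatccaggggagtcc
Sod2 lies on chromosome 17 (13006846 to 13040063, plus strand) and encodes 222 amino acids, starting with a stretch that targets the protein to mitochondria. Sod3 lies on chromosome 5 (52363791 to 52371418, plus strand) and encodes 251, starting with a secretion signal. Sod1 overlaps Scaf4 on the opposite strand, with 0 bases of shared exon.

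The 3 glutathione peroxidases share a feature that ordinary coding sequences lack, a TGA codon inside the reading frame that is read as selenocysteine, the residue of the active site. It is shown in capitals with 12 bases on each side, together with the same site of Sephs2, the enzyme that makes the selenium donor for this residue.
Gpx1: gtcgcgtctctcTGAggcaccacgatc
Gpx3: gtagccagctacTGAggtctgacagac
Gpx4: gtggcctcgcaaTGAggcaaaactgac
Sephs2: ggcatgaagggcTGAggctgcaaggtc
The codon is number 47 of Gpx1, number 73 of Gpx3 and of Gpx4, and number 63 of Sephs2. Gpx1 is on chromosome 9 (108338903 to 108340343, plus strand), Gpx3 on chromosome 11 (54902453 to 54910377, plus strand), Gpx4 on chromosome 10 (80047166 to 80056439, plus strand) and Sephs2 on chromosome 7 (127271879 to 127274055, minus strand). Cat is on chromosome 2 (103453849 to 103485160, minus strand), Nqo1 and Hmox1 are on chromosome 8 (107388225 to 107403206, minus strand, and 75093621 to 75100589, plus strand), and Gclc is on chromosome 9 (77754535 to 77794485, plus strand).

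Total counts ran from 17538380 to 21194980 per tumor. Values are given as CPM, the count of a gene per fixed number of reads, with library sizes scaled by TMM. Saline tumor 3 stood apart from the others: its median Spearman correlation with the other 8 tumors over 15821 genes was 0.872, against 0.924 to 0.962 for the rest. Sod3, its ratios to Sod1 and Sod2, Sod2 under i.v. TLZ and Hmox1 are therefore given with and without it. Genes outside the members, marker sums and the closeness of genes to Sod3 are given only with it, and may depend on it. Transcripts of the genotype and of the drug target were present in all 9 tumors, with Brca1 at 9.46 to 42.7 CPM, Trp53 at 23.4 to 108 CPM and Parp1 at 52.3 to 172 CPM, and counts over whole genes do not show a deletion of single exons. The luminal epithelial markers, which include Epcam, Krt8 and Krt18, were detected in every tumor, with 0 of 8 markers at a count of 0. Summed over the 8 genes, they reached 3844 to 7801 CPM in saline, 4299 to 6768 CPM in i.v. TLZ and 3487 to 4692 CPM in NanoTLZ tumors.

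Of the 10 enzymes, Sod3 had the largest difference from saline in both treated groups. Its level was 9.16, 10.7 and 0.642 CPM in saline tumors 1, 2 and 3. It was 91.0, 127 and 45.8 CPM in the i.v. TLZ tumors, and 38.6, 57.1 and 85.7 CPM in the NanoTLZ tumors. All 6 treated tumors lay above the saline range, and even the lowest of them, NanoTLZ tumor 1, exceeded saline tumor 2, the highest control. Saline tumor 3 was lowest by far, with 14 reads against 160 and 224 in the other saline tumors. Group means were 6.82 ± 5.41 CPM in saline, 87.9 ± 40.6 CPM in i.v. TLZ and 60.4 ± 23.7 CPM in NanoTLZ tumors (SD, n = 3 each).

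The fitted difference in Sod3 was a log2 fold change of 3.69 for i.v. TLZ over saline (SE 0.84, 95% interval 1.83 to 5.55, 12.9-fold, edgeR adjusted p = 0.395). For NanoTLZ over saline it was 3.15 (SE 0.82, interval 1.33 to 4.97, 8.86-fold, edgeR adjusted p = 0.552). With both treated groups averaged it was 3.42 (SE 0.78, interval 1.67 to 5.16, 10.7-fold, edgeR adjusted p = 0.271). The quasi-likelihood test of edgeR with Benjamini-Hochberg adjustment over 15821 genes therefore did not call Sod3, whereas DESeq2 did. DESeq2 on all 9 tumors gave a log2 fold change of 3.68 for i.v. TLZ (adjusted p = 0.0007), 3.15 for NanoTLZ (adjusted p = 0.0109) and 3.42 for both (adjusted p = 0.000118). Over all the alternatives run, the adjusted p of Sod3 ranged from 0.0007 to 0.779 for i.v. TLZ, from 0.0109 to 0.901 for NanoTLZ and from 0.000118 to 0.487 for both. Without saline tumor 3 the log2 fold changes were 3.16, 2.63 and 2.90, with edgeR adjusted p of 0.341, 0.529 and 0.165. Both treated groups are compared with the same 3 saline tumors, so the 2 differences are not independent, and the study itself named Sod3 from these tumors, so its difference here is not independent evidence. The study also reported a matching real-time PCR result for Sod3, from the same RNA and from samples of other mice.

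NanoTLZ and i.v. TLZ tumors overlapped in Sod3. The direct comparison gave a log2 fold change of -0.54 (SE 0.75, interval -2.21 to 1.13, edgeR adjusted p = 0.9999), an interval that spans both a lower and a higher level under NanoTLZ.

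**Figure D1:**
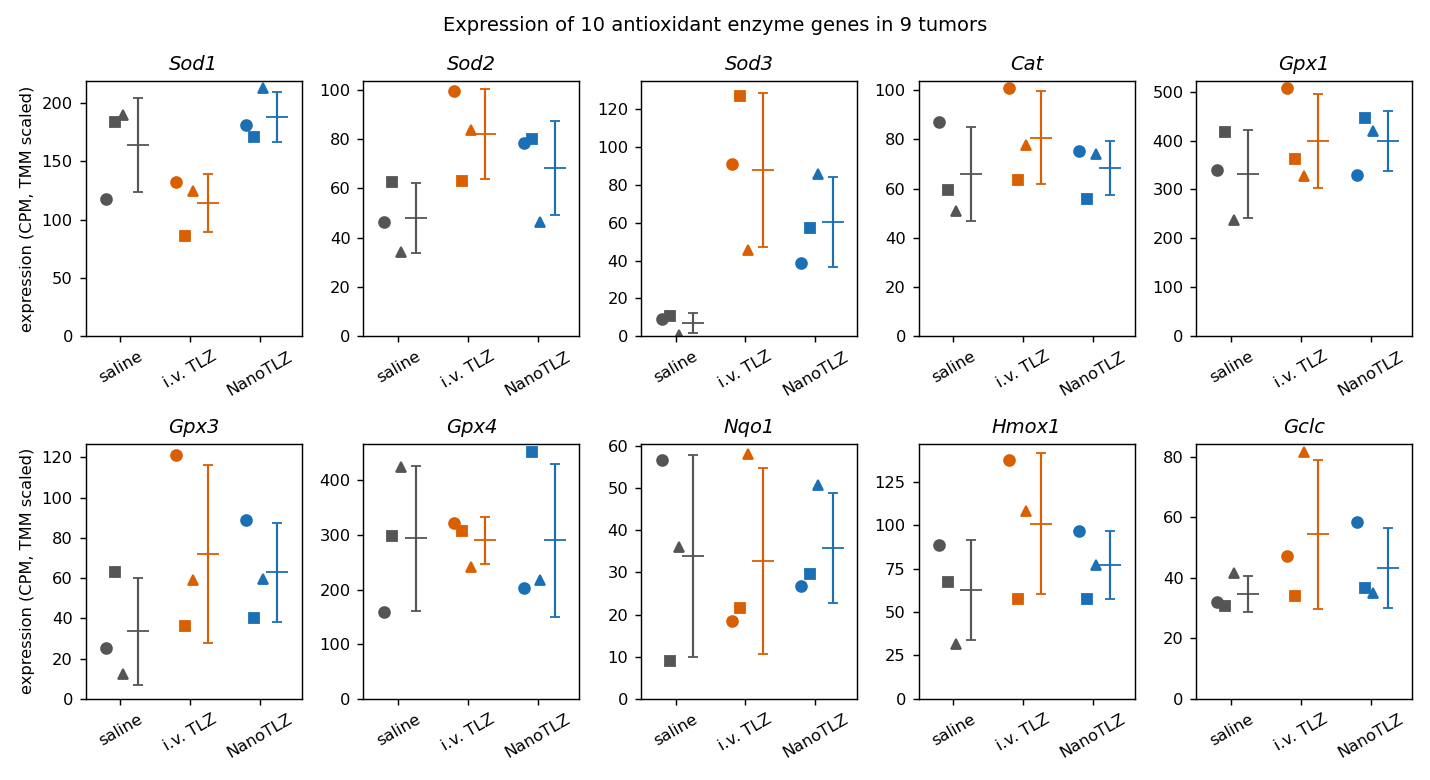
Expression of the 10 antioxidant enzyme genes in 9 tumors, in CPM on a linear axis from 0, with circles, squares and triangles for tumors 1, 2 and 3 of each group and bars for the mean and SD of 3 tumors. Sod3 shows the 6 treated tumors at 38.6 to 127 CPM above the 3 saline tumors at 0.642 to 10.7 CPM, while in most other panels the groups overlap.

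The intracellular dismutases differed less from saline than Sod3 did. Sod1 stood at 117, 184 and 190 CPM in the saline tumors. Levels were 132, 85.6 and 125 CPM in i.v. TLZ and 181, 171 and 212 CPM in NanoTLZ tumors. The i.v. TLZ and NanoTLZ groups did not overlap, but each of them overlapped saline, where tumor 1 was low. For Sod1 the log2 fold change against saline was -0.52 under i.v. TLZ (SE 0.29, edgeR adjusted p = 0.544) and 0.20 under NanoTLZ (SE 0.29, edgeR adjusted p = 0.838). Set directly against i.v. TLZ, NanoTLZ had a Sod1 level higher by 0.72 on the log2 scale (SE 0.29, interval 0.08 to 1.36, 1.65-fold, edgeR adjusted p = 0.9999).

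Sod2, whose product handles superoxide from the respiratory chain, was at 46.3, 62.7 and 34.3 CPM in saline tumors. It reached 99.3, 63.1 and 83.7 CPM in i.v. TLZ and 78.4, 80.2 and 46.3 CPM in NanoTLZ tumors. All 3 i.v. TLZ tumors lay above saline, although i.v. TLZ tumor 2 and saline tumor 2 were almost level, and NanoTLZ tumor 3 fell within the saline range. The Sod2 difference was 0.78 on the log2 scale under i.v. TLZ (SE 0.33, interval 0.05 to 1.51, edgeR adjusted p = 0.46) and 0.51 under NanoTLZ (SE 0.33, interval -0.22 to 1.25, edgeR adjusted p = 0.626). Without saline tumor 3, which was the lowest of its group, the i.v. TLZ value was 0.60 (edgeR adjusted p = 0.598).

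Because a ratio of counts within 1 tumor needs no library scaling, Sod3 was set against Sod1 and Sod2 tumor by tumor. Sod3 reads per Sod1 read were 0.0783, 0.0581 and 0.00351 in the saline tumors. They were 0.689, 1.48 and 0.367 in i.v. TLZ and 0.213, 0.334 and 0.403 in NanoTLZ tumors. The ratio was highest in i.v. TLZ tumor 2 and lowest in saline tumor 3. The mean log2 ratio was higher by 4.22 in the 6 treated than in the 3 saline tumors (18.7-fold, two-sided exact permutation test over 84 splits p = 0.0119, 0.0119 after adjustment over the 2 ratios). That p is the smallest these group sizes allow. Sod3 was named by the study from these tumors and already separated treated from saline tumors. Both ratios also share the Sod3 counts, so these p-values describe the separation and are not independent evidence.

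Per Sod2 read, Sod3 reads numbered 0.198, 0.171 and 0.0194 in saline tumors. The i.v. TLZ tumors had 0.917, 2.01 and 0.548, and the NanoTLZ tumors 0.492, 0.712 and 1.85. Again no treated tumor fell into the saline range. The log2 difference was 3.42 (10.7-fold, exact permutation p = 0.0119, 0.0119 adjusted, again the smallest possible). Leaving out saline tumor 3 lowered both differences, to 2.80 for Sod1 and 2.34 for Sod2. Each had an exact permutation p of 0.0357, again the smallest possible for those group sizes. For each treated group alone against saline the exact permutation p was 0.1, the lowest that 3 against 3 tumors can give. Between NanoTLZ and i.v. TLZ the ratio to Sod1 differed by -1.24 (exact permutation p = 0.2) and the ratio to Sod2 by -0.21 (exact permutation p = 0.7).

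The ratio of Sod3 reads to the geometric mean of the Nqo1, Hmox1 and Gclc reads is given as a description. It was 0.169, 0.403 and 0.0184 in saline, 1.85, 3.65 and 0.573 in i.v. TLZ, and 0.724, 1.44 and 1.66 in NanoTLZ tumors. Saline and treated tumors did not overlap, with i.v. TLZ tumor 3 nearest to saline.

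**Figure D2:**
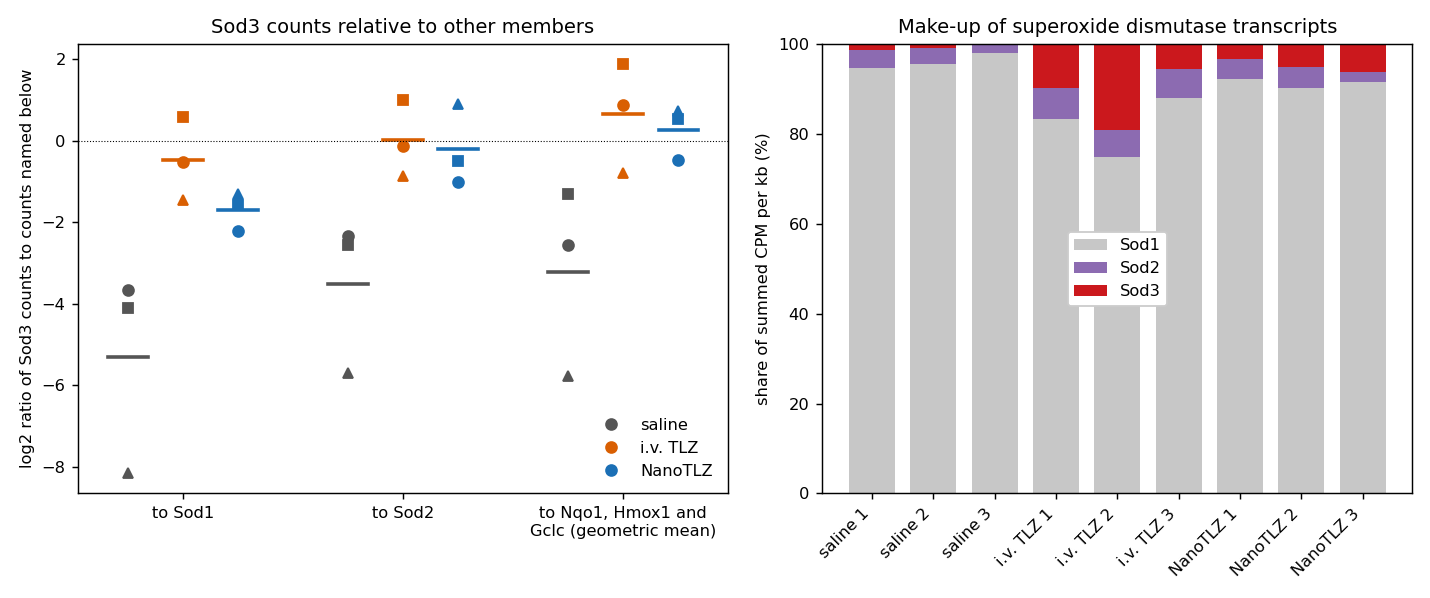
Left, log2 ratio of Sod3 counts to the counts of Sod1, of Sod2, and the geometric mean of Nqo1, Hmox1 and Gclc in each tumor (circles, squares and triangles for tumors 1, 2 and 3 of a group, lines for group means), and right, the share in percent of each dismutase in their summed CPM per kb of transcript. Saline tumors lie below all treated tumors in each ratio, and the Sod3 share runs from 0.0569% in saline tumor 3 to 19.0% in i.v. TLZ tumor 2.

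Levels of different genes were set side by side per length, as CPM per kb of the principal transcript. On this scale Sod1 made up 94.6, 95.5 and 98.0% of dismutase transcripts in saline tumors. The Sod1 share was 83.3, 74.9 and 88.0% in i.v. TLZ and 92.3, 90.2 and 91.5% in NanoTLZ tumors. Sod3 made up 1.27, 0.950 and 0.0569% in saline, 9.84, 19.0 and 5.54% in i.v. TLZ, and 3.37, 5.16 and 6.33% in NanoTLZ tumors. Sod1 was the most abundant dismutase transcript in all 9 tumors on this scale, but in 8 of 9 when the length of all annotated exons merged was used, where Sod3 led in i.v. TLZ tumor 2 with 54.9%. With either length the Sod3 share was higher in each treated tumor than in any saline tumor, at 16.2% or more against 6.69% or less with merged exons. Summed over the 3 genes, the dismutases stood at 193, 301 and 302 CPM per kb in saline, 247, 178 and 221 in i.v. TLZ, and 306, 296 and 362 in NanoTLZ tumors. The summed level of i.v. TLZ overlapped saline, and NanoTLZ tumor 2 was also within the saline range.

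Ordered by mean CPM per kb, the saline tumors had Gpx1 (309), Gpx4 (306) and Sod1 (255) at the top, and these 3 overlapped each other. None of them overlapped Hmox1 (39.8), which was followed by Cat (25.2), Nqo1 (21.9), Gpx3 (21.05), Gclc (10.1) and Sod2 (8.15), all overlapping their neighbours. Sod3 was last at 1.83 CPM per kb and did not overlap Sod2. In i.v. TLZ tumors Sod3 was 7th of 10 at 23.5 CPM per kb, above Nqo1 (21.05), Gclc (15.9) and Sod2 (14.0), and in NanoTLZ tumors it was 8th at 16.2, above Gclc (12.7) and Sod2 (11.7). The 3 most abundant genes were the same in every group, with Gpx1 at 373, Gpx4 at 302 and Sod1 at 178 CPM per kb in i.v. TLZ and 372, 303 and 294 in NanoTLZ tumors. Sod1 did not overlap Gpx4 above it or Hmox1 below it in i.v. TLZ tumors, and in NanoTLZ tumors it did not overlap Hmox1, while all other neighbours in either order overlapped.

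Of the peroxide scavengers, secreted Gpx3 had the largest difference. Its level was 25.3, 63.2 and 12.2 CPM in saline tumors, 121, 36.0 and 59.0 CPM in i.v. TLZ tumors and 88.9, 40.2 and 59.5 CPM in NanoTLZ tumors. Saline tumors 1 and 3 were below all 6 treated tumors, but saline tumor 2 was above 4 of them, so the groups overlapped. The Gpx3 log2 fold change was 1.103 under i.v. TLZ (SE 0.62, interval -0.27 to 2.48, edgeR adjusted p = 0.546) and 0.91 under NanoTLZ (SE 0.62, interval -0.47 to 2.28, edgeR adjusted p = 0.646). Without saline tumor 2 these values were 1.94 (edgeR adjusted p = 0.217) and 1.75 (edgeR adjusted p = 0.237). Those were the highest values with single tumors left out, and the lowest were 0.50 for i.v. TLZ and 0.53 for NanoTLZ.

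Gpx1, the cytosolic glutathione peroxidase, was at 341, 417 and 237 CPM in saline, 508, 363 and 327 CPM in i.v. TLZ, and 330.1, 447 and 420 CPM in NanoTLZ tumors. Its difference from saline was 0.27 on the log2 scale in both treated groups (interval -0.43 to 0.97 in each, edgeR adjusted p = 0.785 and 0.797). Gpx4 was at 159, 298 and 424 CPM in saline, 322, 307 and 241 CPM in i.v. TLZ, and 202, 452 and 217 CPM in NanoTLZ tumors. The spread within saline and within NanoTLZ was wider than any gap between groups, and the Gpx4 difference was -0.02 in both comparisons (interval -0.96 to 0.92 under i.v. TLZ and -0.96 to 0.93 under NanoTLZ, edgeR adjusted p = 0.992 and 0.994). Cat was at 87.3, 59.4 and 50.9 CPM in saline, 101, 63.5 and 77.6 CPM in i.v. TLZ, and 75.1, 55.8 and 74.0 CPM in NanoTLZ tumors. Its log2 fold change was 0.29 under i.v. TLZ (interval -0.37 to 0.95, edgeR adjusted p = 0.749) and 0.05 under NanoTLZ (interval -0.61 to 0.71, edgeR adjusted p = 0.968).

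The Nrf2-type enzymes overlapped between groups throughout. Nqo1, a quinone reductase often used as a readout of Nrf2, was at 56.7, 9.05 and 36.1 CPM in saline, 18.5, 21.5 and 58.1 CPM in i.v. TLZ, and 26.8, 29.6 and 50.7 CPM in NanoTLZ tumors. Saline alone held both the lowest and nearly the highest value, and the log2 fold change was -0.05 under i.v. TLZ (interval -1.47 to 1.36, edgeR adjusted p = 0.982) and 0.07 under NanoTLZ (interval -1.34 to 1.49, edgeR adjusted p = 0.980).

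Hmox1, the inducible heme oxygenase, was at 88.5, 67.1 and 31.7 CPM in saline, 137, 57.3 and 108 CPM in i.v. TLZ, and 96.6, 57.7 and 77.0 CPM in NanoTLZ tumors. Saline tumor 3 was low, and i.v. TLZ tumor 2 and NanoTLZ tumors 2 and 3 lay inside the saline range. The Hmox1 difference was 0.69 under i.v. TLZ (SE 0.43, interval -0.27 to 1.65, edgeR adjusted p = 0.581) and 0.30 under NanoTLZ (SE 0.43, interval -0.65 to 1.26, edgeR adjusted p = 0.836), and without saline tumor 3 it was 0.38 (edgeR adjusted p = 0.768) and 0.02 (edgeR adjusted p = 0.997). Gclc, the catalytic subunit for the first step of glutathione synthesis, was at 31.9, 30.6 and 41.5 CPM in saline, 47.3, 33.9 and 81.6 CPM in i.v. TLZ, and 58.5, 36.5 and 35.0 CPM in NanoTLZ tumors. The highest Gclc level belonged to i.v. TLZ tumor 3, and the log2 fold change was 0.65 under i.v. TLZ (SE 0.37, interval -0.17 to 1.46, edgeR adjusted p = 0.549) and 0.32 under NanoTLZ (SE 0.36, interval -0.49 to 1.13, edgeR adjusted p = 0.790). Without i.v. TLZ tumor 3 the first value was 0.24 (edgeR adjusted p = 0.831).

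Counted together, 0 of 10 members were called by edgeR for i.v. TLZ against saline, where 0% of 15821 tested genes were called. At an unadjusted edgeR p under 0.05, 2 of 10 members were higher, Sod2 and Sod3, against 4.91% of all tested genes, and the same 2 did not overlap saline, against 5.99% of all genes higher without overlap. For NanoTLZ against saline, 0 of 10 members were called where 0.00632% of genes were, and Sod3 alone was higher without overlap and at an unadjusted edgeR p under 0.05, against 7.82% and 3.51% of genes. Between NanoTLZ and i.v. TLZ, 0 of 10 members and 0% of genes were called, and Sod1 alone was higher without overlap and at an unadjusted edgeR p under 0.05, against 3.2% and 0.449% of genes. With both treated groups averaged, 0 of 10 members were called against 0.019% of genes, and Sod3 alone was higher without overlap and at an unadjusted edgeR p under 0.05, against 2.81% and 4.8%. DESeq2 on all 9 tumors called 1 of 10 members, Sod3, in each comparison with saline, against 1.12% of genes for i.v. TLZ, 0.712% for NanoTLZ and 1.53% for both, and it called 0 members between the treated groups, against 0.0119%. DESeq2 on the 2 groups compared called Sod3 for i.v. TLZ and for NanoTLZ, where it called 0.534% and 1.05% of genes, and 0 members between the treated groups, where it called 0.127%. The median log2 fold change of the 10 members was 0.47 under i.v. TLZ, 0.29 under NanoTLZ and 0.38 for both, beside -0.03, -0.09 and -0.06 for all tested genes.

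**Figure D3:**
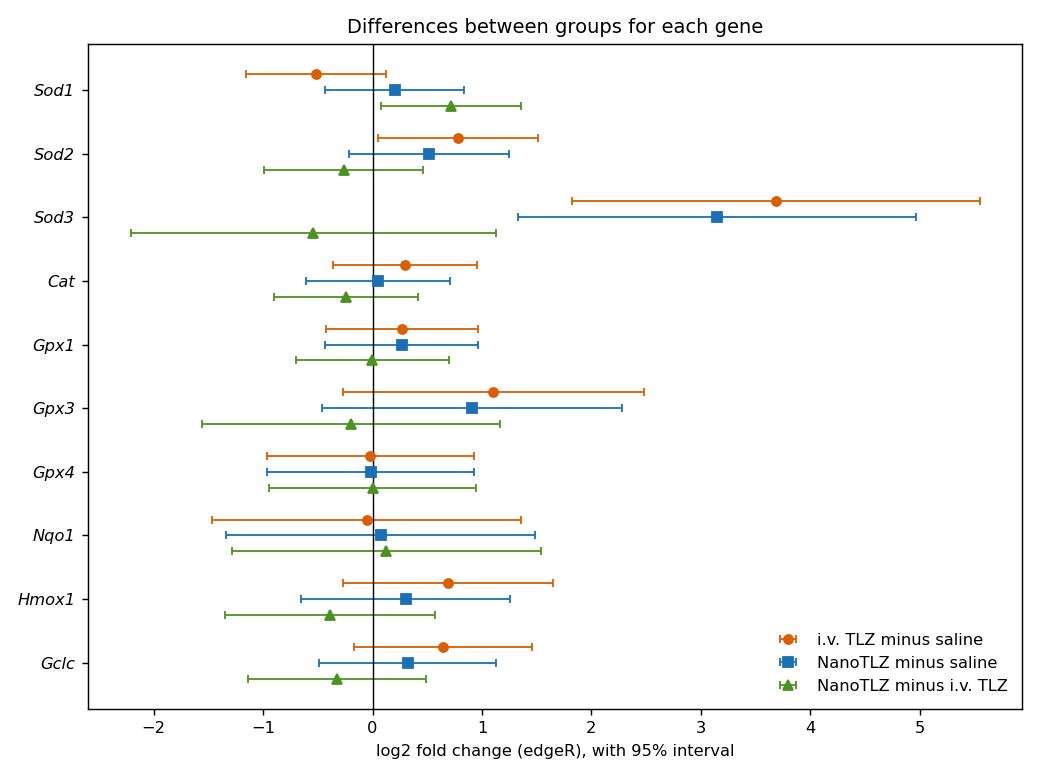
Log2 fold change of each of the 10 genes from the edgeR fit with its 95% interval, for i.v. TLZ minus saline (orange circles), NanoTLZ minus saline (blue squares) and NanoTLZ minus i.v. TLZ (green triangles). The Sod3 intervals against saline run from 1.83 to 5.55 and from 1.33 to 4.97, and the only other intervals clear of 0 are those of Sod2 for i.v. TLZ (0.05 to 1.51) and Sod1 between the treated groups (0.08 to 1.36).

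Transcript levels of cell type markers were set beside these values. In bulk tumor RNA, fewer cells of a type and less RNA per cell cannot be told apart. Fibroblast markers, of interest because Sod3 is a matrix-bound product, were above saline for 11 of 12 genes with both treated groups averaged, with a median log2 fold change of 0.58 and 0 markers at a count of 0 in any tumor. Their summed level was 1799 to 2451 CPM in saline, 1130 to 6367 CPM in i.v. TLZ and 2164 to 3747 CPM in NanoTLZ tumors. Sod3 was highest (127 CPM) in i.v. TLZ tumor 2, which had the lowest fibroblast sum of all 9 tumors (1130 CPM). Col1a1 alone made up 39.4% of that sum. Of the 12 markers, 1 was higher in all treated tumors without overlap and 0 were lower, against 2.81% and 2.66% of all tested genes. That marker was Dcn (log2 fold change 1.90, SE 0.69, edgeR adjusted p = 0.313). For NanoTLZ alone 4 of 12 were higher without overlap and 0 lower, against 7.82% and 8.13% of all tested genes. The 4 were Dcn, Pdgfra, Postn and Pi16. At an unadjusted edgeR p under 0.05, 3 of 12 were higher under NanoTLZ, against 3.51% of genes. For i.v. TLZ alone, Dcn was the 1 marker higher on both measures, against 5.99% and 4.91% of genes. The part of fibroblasts in the Sod3 difference was not tested. Macrophage markers summed to 502 to 1797 CPM in saline, 775 to 1688 CPM in i.v. TLZ and 1677 to 2355 CPM in NanoTLZ tumors, with 8 of 9 genes above saline for both treated groups averaged. Smooth muscle and pericyte markers summed to 408 to 828 CPM, 308 to 750 CPM and 500 to 621 CPM, and endothelial markers to 86.4 to 176 CPM, 91.3 to 197 CPM and 174 to 224 CPM, in the same order of groups.

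Markers of 2 other tissues and of proliferation went the other way. Skeletal muscle markers summed to 28.9 to 693 CPM in saline, highest in saline tumor 3, against 3.01 to 31.1 CPM in i.v. TLZ and 8.19 to 16.4 CPM in NanoTLZ tumors, and 7 of 7 tested genes were below saline. Of the 8 listed muscle markers, 1 was at a count of 0 in each saline tumor and 1 to 4 in the treated tumors. Erythroid markers summed to 23.2 to 59.5 CPM in saline, 3.14 to 22.2 CPM in i.v. TLZ and 1.40 to 8.69 CPM in NanoTLZ tumors, with 4 of 4 tested genes below saline. Of the 6 listed erythroid markers, 1 was at a count of 0 in each saline tumor and 0 to 3 in the treated tumors. Proliferation genes summed to 824 to 2483 CPM in saline, 438 to 869 CPM in i.v. TLZ and 613 to 726 CPM in NanoTLZ tumors, with 12 of 12 below saline and a median of -1.27. Summed levels of basal epithelial markers were 1204 to 4255 CPM in saline, 915 to 3877 CPM in i.v. TLZ and 970 to 1564 CPM in NanoTLZ tumors. Chondroid markers summed to 125 to 257 CPM, 255 to 639 CPM and 574 to 1217 CPM, T cell markers to 5.15 to 13.3 CPM, 2.41 to 22.4 CPM and 15.6 to 33.5 CPM, and plasma and B cell markers to 1.66 to 5.73 CPM, 2.57 to 28.2 CPM and 3.44 to 42.9 CPM, in the same order of groups. Neutrophil markers summed to 9.96 to 223 CPM, 41.3 to 189 CPM and 59.3 to 186 CPM, and adipocyte markers to 23.0 to 37.2 CPM, 19.2 to 32.2 CPM and 21.5 to 91.8 CPM. The counts of markers above or below saline stand beside 7275 above and 8546 below among 15821 tested genes, with both treated groups averaged. The 3 genes that edgeR called in that comparison are in these lists. Myh4 and Myl1 of muscle were lower, and chondroid Col2a1 was higher (edgeR adjusted p = 0.0207 each). Col2a1 was also the 1 gene called for NanoTLZ against saline (edgeR adjusted p = 0.0127). DESeq2 on all 9 tumors, with both treated groups averaged, called 1.53% of genes. Lower were 6 of 7 muscle markers, 2 of 12 proliferation genes (Mki67, Top2a), 1 of 4 erythroid (Hbb-bs) and 1 of 8 luminal markers (Elf5). Higher were 2 of 5 chondroid markers (Col2a1, Acan) and 1 of 6 plasma and B cell markers (Cd79a). In the other marker lists DESeq2 called 0 genes. The part of these lists in the Sod3 difference was not tested.

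Around the members, 145 further genes of antioxidant pathways were listed and 136 of them were tested. None of the 136 was called by edgeR in any comparison. At an unadjusted edgeR p under 0.05, 10 of the 136 (7.35%) were higher and 6 (4.41%) lower under i.v. TLZ, against 4.91% and 5.47% of all tested genes. Under NanoTLZ 7 (5.15%) were higher and 3 (2.21%) lower, against 3.51% and 5.49%, and with both groups averaged 10 (7.35%) were higher and 6 (4.41%) lower, against 4.8% and 8.29%. In the last comparison 6 (4.41%) were higher and 3 (2.21%) lower without overlap, against 2.81% and 2.66% of all tested genes. DESeq2 on all 9 tumors gave an adjusted p to 132 of them for NanoTLZ, 134 for both groups averaged and 133 for i.v. TLZ. It called 1, the carboxylesterase Ces1g, higher under NanoTLZ and with both groups averaged, and 0 under i.v. TLZ. Of all genes it called 0.712%, 1.53% and 1.12% in the same order of comparisons. Ces1g was not covered by the rule for named genes and was singled out after its values were seen. The median log2 fold change of the 136 genes was 0.11 under i.v. TLZ, 0.04 under NanoTLZ and 0.06 for both. With both treated groups averaged, 3 of 6 peroxiredoxins were above saline (median 0.08), 8 of 15 genes of the thioredoxin and glutaredoxin system (0.11), 6 of 10 genes of glutathione synthesis and recycling (0.32), 7 of 11 Nrf2 regulators (0.16), 3 of 5 genes of copper supply (0.05), 1 of 3 tested further glutathione peroxidases (-0.85) and 7 of 18 other antioxidant proteins (-0.07).

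The copper supply to Sod1 and Sod3 was represented by Ccs, the chaperone that loads Sod1, by Atox1, which hands copper to the secretory pathway, and by Atp7a, the pump that moves it across the Golgi membrane. Ccs was at 22.1, 35.5 and 22.7 CPM in saline, 39.1, 36.5 and 34.4 CPM in i.v. TLZ, and 34.1, 60.6 and 35.4 CPM in NanoTLZ tumors. Saline tumors 1 and 3 were below every treated tumor and saline tumor 2 was among them, giving a log2 fold change of 0.57 for both treated groups (SE 0.28, edgeR adjusted p = 0.410). Atox1 differed by 0.12 (edgeR adjusted p = 0.930) and Atp7a by -0.47 (edgeR adjusted p = 0.553), both with overlapping groups.

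Among the Nrf2 regulators, Nfe2l2 itself differed by 0.32 (edgeR adjusted p = 0.678), its inhibitor Keap1 by 0.16 (edgeR adjusted p = 0.835) and the repressor Bach1 by -0.64 (edgeR adjusted p = 0.534), with overlapping groups. Maff, a small Maf protein that pairs with Nrf2 or with Bach1, was at 57.9, 76.2 and 35.5 CPM in saline, 116, 140.2 and 127 CPM in i.v. TLZ, and 96.6, 86.3 and 98.3 CPM in NanoTLZ tumors. All 6 treated tumors lay above saline and the i.v. TLZ tumors were highest, with a log2 fold change of 0.95 for both groups (SE 0.26, edgeR adjusted p = 0.282).

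Of 30 tested Nrf2 target enzymes outside the members, 22 were above and 8 below saline for both treated groups averaged, with a median of 0.22. Srxn1, which repairs overoxidised peroxiredoxins, was at 32.7, 41.0 and 27.85 CPM in saline, 74.1, 55.5 and 49.8 CPM in i.v. TLZ, and 66.05, 59.1 and 55.4 CPM in NanoTLZ tumors. The treated tumors were all higher, by 0.82 on the log2 scale (SE 0.24, edgeR adjusted p = 0.284). Ftl1, the light chain of the iron store ferritin, was at 1084, 1729 and 1012 CPM in saline, 3055, 2611 and 1756 CPM in i.v. TLZ, and 2159, 2014 and 2272 CPM in NanoTLZ tumors. It was also higher in all 6, by 0.85 (SE 0.32, edgeR adjusted p = 0.329), although the gene has pseudogene copies with which reads could be shared. The cystine carrier subunit Slc7a11 differed by 1.32 (SE 0.62, edgeR adjusted p = 0.399), with i.v. TLZ tumor 1 and NanoTLZ tumor 3 inside the saline range. Among other targets of the same factor, Gclm, the partner of Gclc, differed by -0.29, Gsr by -0.21 and Prdx1 by 0.18, with overlapping groups and edgeR adjusted p of 0.767, 0.828 and 0.840. Txnrd1, the cytosolic thioredoxin reductase, differed by -0.47 (edgeR adjusted p = 0.452), and its NanoTLZ tumors lay below saline without overlap while its i.v. TLZ tumors overlapped saline.

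A pair of enzymes that act on glutathione were higher in all treated tumors. Chac1, which degrades glutathione and is induced by the amino acid stress response, was at 9.27, 5.67 and 2.98 CPM in saline, 16.2, 26.9 and 9.79 CPM in i.v. TLZ, and 12.7, 14.3 and 11.1 CPM in NanoTLZ tumors. The log2 fold change for both groups was 1.33 (SE 0.45, edgeR adjusted p = 0.294), with saline tumor 1 just below i.v. TLZ tumor 3. Gsto1, an omega class glutathione transferase, was higher by 0.62 (SE 0.30, edgeR adjusted p = 0.401), from 56.6 to 82.6 CPM in saline and from 83.3 to 199 CPM in treated tumors. Of 18 tested glutathione transferases, 6 were above and 12 below saline, with a median of -0.56.

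There were 3 genes lower in all treated tumors. Prdx3, the mitochondrial peroxiredoxin, was at 80.8, 43.8 and 49.7 CPM in saline, 32.6, 27.8 and 32.6 CPM in i.v. TLZ, and 42.4, 38.0 and 37.7 CPM in NanoTLZ tumors, a difference of -0.73 (SE 0.24, edgeR adjusted p = 0.289). Sephs2, whose own selenocysteine codon is printed above, was at 51.2, 63.7 and 137 CPM in saline, 34.4, 41.2 and 42.4 CPM in i.v. TLZ, and 50.2, 47.9 and 36.4 CPM in NanoTLZ tumors, a difference of -1.002 (SE 0.31, edgeR adjusted p = 0.284). Saline tumor 3 was the highest for Sephs2, and NanoTLZ tumor 1 was almost level with saline tumor 1. The 16 tested genes for selenoproteins and their synthesis were split evenly, with 8 above and 8 below saline. Maob, a mitochondrial amine oxidase that releases hydrogen peroxide, differed by -2.39 (SE 0.66, edgeR adjusted p = 0.282). Its levels were low, at 0.572, 0.620 and 3.72 CPM in saline and 0.164 to 0.433 CPM in treated tumors. Saline tumor 3 held 81 Maob reads against 10 and 13 in saline tumors 1 and 2, so the size of the difference rests largely on that tumor. Among 17 tested sources of superoxide and hydrogen peroxide, 12 were above and 5 below saline, with a median of 0.59. For all these lists the counts stand beside 7275 of 15821 tested genes above saline and a median of -0.06.

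**Figure D4:**
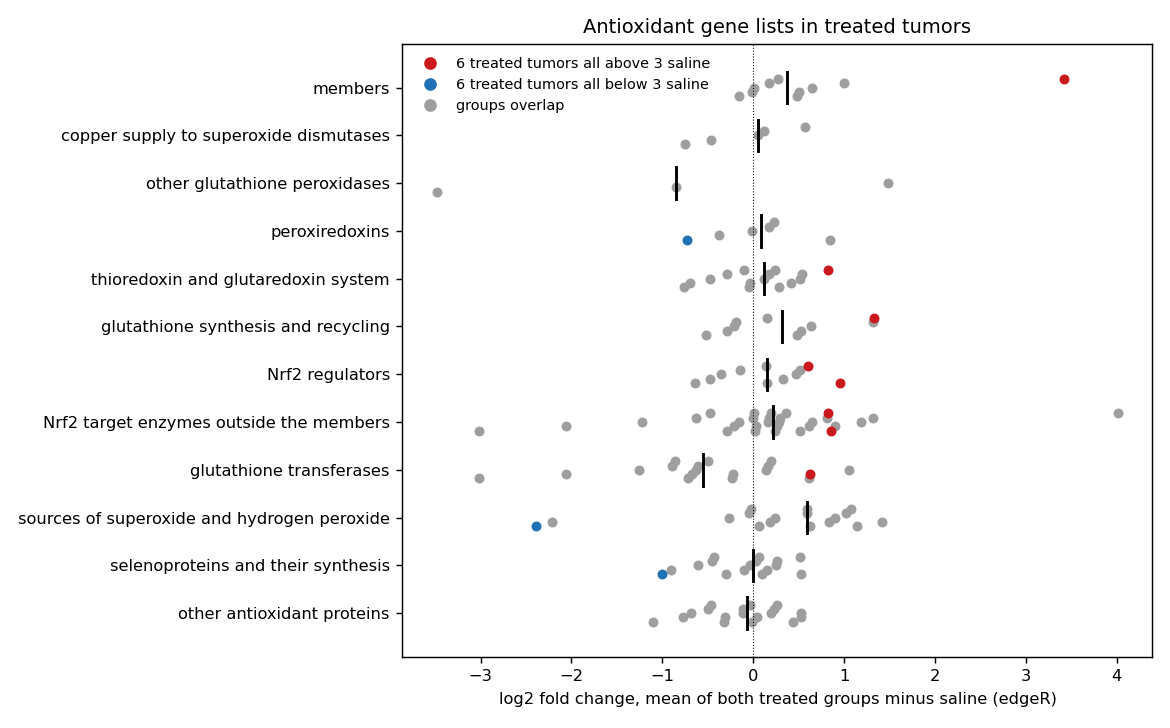
Log2 fold change of both treated groups averaged minus saline for each tested gene of 12 antioxidant lists (points), with the median of each list as a black bar. Red points are genes whose 6 treated tumors all lay above the 3 saline tumors and blue points those below, and among the members only Sod3, at 3.42, is red.

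The genes whose levels followed Sod3 most closely over the 9 tumors were found by the root mean square difference between log2 CPM profiles, each centred on its own mean. The 5 nearest were Tnfrsf9 (0.765), Cyp21a1 (0.825), Zfp697 (0.831), Ebf4 (0.836) and Ctsw (0.964), where the median over all tested genes was 2.27. Tnfrsf9, a costimulatory receptor of lymphocytes, was at 4.46, 14.5 and 0.184 CPM in saline, 54.1, 27.0 and 32.0 CPM in i.v. TLZ, and 25.6, 26.0 and 20.9 CPM in NanoTLZ tumors. Like Sod3, all 5 of these genes were lowest in saline tumor 3, at 4, 0, 1, 4 and 4 reads in the order above. Their closeness to Sod3 was not computed without that tumor. Cyp21a1, a steroid 21-hydroxylase with a near-identical pseudogene copy, was at 1.03, 0.286 and 0 CPM in saline, 12.2, 8.47 and 5.41 CPM in i.v. TLZ, and 10.5, 3.002 and 11.7 CPM in NanoTLZ tumors. Neither Tnfrsf9 nor Cyp21a1 was called by edgeR, with log2 fold changes of 2.24 (adjusted p = 0.347) and 4.30 (adjusted p = 0.271) for both treated groups. Among the members, Gpx3 came nearest to Sod3 at 1.66, rank 583 of the tested genes, followed by Hmox1 at 1.90 and Sod2 at 1.91, and the most distant was Nqo1 at 2.40. These distances describe 9 tumors that share their groups and carry no test.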

How the data were processed

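Total RNA of 9 tumors was sequenced, 3 in each treatment group. The table deposited by the authors holds raw counts of reads on genes and is not normalized. Their submitters' processing notes name TopHat2, DESeq2 and the mm10 build. The counting program, annotation and strand setting are not given in the sources used here, so reads of overlapping genes could not be assigned by strand. All 9 columns were used, and no 2 were identical.

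Of 35275 listed identifiers, 34490 matched GENCODE M21 (GRCm38), from which symbols, positions, lengths and coding sequences were taken. Some items are not reported here. Genes were filtered with filterByExpr (minimum count 10, minimum total 15), leaving 15821, and TMM scaled. The quasi-likelihood model of edgeR 4.0.16 in R 4.3.3 (glmQLFit, then glmQLFTest on contrasts) held a mean for each group and took in all 9 tumors. P-values were Benjamini-Hochberg adjusted over 15821 genes and called under 0.05. The biological coefficient of variation was 49.8%. Depth was 17538380 to 21194980 counts per tumor, and counting error is widest for the lowest count of a member, 14. Ratios were compared by exact permutation of log2 ratios (scipy 1.17.1). Log2 CPM profiles used a prior count of 2. Plots were drawn with matplotlib 3.10.9, and tables made with pandas 2.3.3 and numpy 2.4.6 under Python 3.11.15. The edgeR step was tested on simulated counts.

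Alternatives were RLE and upper quartile normalization, no filter, DESeq2 1.42.0 on all 9 tumors or on the 2 groups compared, edgeR on the 2 groups compared, each tumor left out in turn, and, for the ratios, a pseudocount and ranks. The members, lists, tests and rules were chosen with earlier results of these data known. Named genes were the 10 members, 12 fixed neighbours in the pathway (Ccs, Atox1, Atp7a, Nfe2l2, Keap1, Bach1, Gclm, Txnrd1, Srxn1, Slc7a11, Gsr and Prdx1), up to 5 listed genes in each direction with the largest change among those whose 6 treated and 3 saline tumors did not overlap, and the 5 genes nearest to Sod3. Marker lists for adipocytes, neutrophils, T cells, plasma and B cells, basal epithelium and chondroid cells were also summed.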

Additional observations from a re-analysis of the deposited data

Results flagged for a closer look

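Sod1 was the single member whose treated tumors all lay on opposite sides of the saline mean by treatment. All 3 i.v. TLZ tumors (85.6, 125 and 132 CPM) lay below the saline mean of 164 CPM, and all 3 NanoTLZ tumors (171, 181 and 212 CPM) lay above it. That held for 1 of 10 members (10%) and for 124 of 15821 tested genes (0.784%). The test of the difference itself is the direct comparison, in which NanoTLZ was higher by 0.72 on the log2 scale (edgeR adjusted p = 0.9999), so the difference did not pass the adjustment. Both treated groups were set against the same 3 saline tumors, of which saline tumor 1, at 117 CPM, lay inside the i.v. TLZ range and the other two inside the NanoTLZ range. Groups of 3 tumors are too small for a test of single outlying tumors.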

How the results depend on the processing

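The number of genes called depended strongly on the tool, and the direction of Sod3, Sod2, Gpx3, Hmox1 and Gclc against saline held in every alternative run. No paired analysis was possible because no number in the labels ties a tumor of 1 group to a tumor of another. For i.v. TLZ against saline, edgeR called 0 genes (1643 at an unadjusted p under 0.05), against 5 without the filter, 194 by DESeq2 on all 9 tumors and 92 by DESeq2 on the 2 groups. For NanoTLZ it called 1 gene, against 6 without the filter, 110 by DESeq2 on all 9 tumors, 171 by DESeq2 on the 2 groups and 0 by edgeR on the 2 groups. Between NanoTLZ and i.v. TLZ it called 0 (266 at an unadjusted p under 0.05), against 3 by DESeq2 on all 9 tumors and 21 on the 2 groups. With both groups averaged it called 3, against 33 without the filter and 273 by DESeq2 on all 9 tumors. With single tumors left out, the number ranged from 0 to 3 for NanoTLZ (3 without saline tumor 1) and from 0 to 18 for both groups averaged (18 without saline tumor 1). The cause of these differences was not tested. Among the members Sod3 alone gained a call, under both DESeq2 fits. Its log2 fold change with single tumors left out ranged from 3.16 to 4.17 for i.v. TLZ, 2.63 to 3.63 for NanoTLZ and 2.90 to 3.90 for both. The Sod3 ratio to Sod1 ranged from 2.80 to 5.04 and that to Sod2 from 2.34 to 4.02, lowest without saline tumor 3 in both cases. Apart from fits with a tumor left out, sign changes were limited to differences near 0. Upper quartile scaling gave 0.0250 for Gpx4 and 0.0378 for Nqo1 under i.v. TLZ, 0.0597 for Gpx4 under NanoTLZ and 0.0424 for Gpx4 with both averaged, and no filter gave 0.000834 for Gpx4 under NanoTLZ. Gpx1 between the treated groups was 0.00983 with RLE scaling, 0.0238 with upper quartile scaling, 0.0191 without the filter, 0.0121 by DESeq2 on all 9 tumors, 0.0136 by edgeR on the 2 groups and 0.00593 by DESeq2 on the 2 groups. With single tumors left out, Gpx4 ranged from -0.30 to 0.35 for i.v. TLZ, -0.45 to 0.37 for NanoTLZ, -0.29 to 0.36 for both and -0.45 to 0.21 between the treated groups. Nqo1 ranged from -0.74 to 0.55, -0.38 to 0.70, -0.44 to 0.63 and -0.19 to 0.85 in the same order. Cat ranged from -0.0717 to 0.34 for NanoTLZ, and between the treated groups Gpx1 ranged from -0.11 to 0.21, Gpx3 from -0.53 to 0.41 and Gclc from -0.60 to 0.11. The length of all annotated exons merged, an alternative chosen after seeing the data, raised the median Sod3 share of dismutase transcripts from 0.950 to 5.15% in saline, from 9.84 to 36.0% in i.v. TLZ and from 5.16 to 23.0% in NanoTLZ tumors, since it counts 3970 bases for Sod1 against 641 in the principal transcript. The lowest count of a member was 14, for Sod3 in saline tumor 3 (exact Poisson 95% interval 7.65 to 23.5, for counting error only), and the next lowest was 160, for Sod3 in saline tumor 1.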

Other observations

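Further listed genes had values outside the comparisons above. They were singled out after their values were seen, and none was called by edgeR. Of the 136 tested pathway genes outside the members, 10 (7.35%) were higher and 4 (2.94%) lower without overlap under i.v. TLZ. The shares of all tested genes were 5.99% and 5.2%. Under NanoTLZ 14 (10.3%) were higher and 8 (5.88%) lower without overlap, against 7.82% and 8.13% of all tested genes. The small Maf genes Mafg and Mafk and the autophagy adaptor Sqstm1, which frees Nrf2 from Keap1, were higher in all 3 i.v. TLZ than in all 3 saline tumors. Mafg was at 179 to 333 CPM in saline, 351 to 540.2 CPM in i.v. TLZ and 291 to 318 CPM in NanoTLZ tumors, a log2 fold change of 0.74 under i.v. TLZ (edgeR adjusted p = 0.460). Mafk was at 44.7 to 56.1 CPM, 65.2 to 126 CPM and 50.5 to 67.1 CPM in the same order, with 0.76 under i.v. TLZ (edgeR adjusted p = 0.450). Sqstm1 was at 224 to 332 CPM, 420 to 577 CPM and 348 to 415 CPM, with 0.75 under i.v. TLZ (edgeR adjusted p = 0.443) and 0.45 under NanoTLZ (edgeR adjusted p = 0.621), and its treated tumors were all above saline. The microsomal transferase Mgst3 was at 9.175 to 24.5 CPM in saline, 28.9 to 43.4 CPM in i.v. TLZ and 16.3 to 36.9 CPM in NanoTLZ tumors, with 1.26 under i.v. TLZ (edgeR adjusted p = 0.437).

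Cybb, the catalytic subunit of the phagocyte NADPH oxidase, which makes superoxide, was higher in all 3 NanoTLZ than in all 3 saline tumors. It was at 54.3, 131 and 28.8 CPM in saline, 114, 57.3 and 112 CPM in i.v. TLZ, and 248, 143 and 170.1 CPM in NanoTLZ tumors, a log2 fold change of 1.39 under NanoTLZ (edgeR adjusted p = 0.552). The macrophage marker sum was 502 to 1797 CPM in saline, 775 to 1688 CPM in i.v. TLZ and 1677 to 2355 CPM in NanoTLZ tumors, and its part in the Cybb difference was not tested. Aox1, an aldehyde oxidase, was at 11.7 to 32.9 CPM in saline and 35.3 to 60.4 CPM in NanoTLZ tumors (1.01, edgeR adjusted p = 0.552), and Nos3, the endothelial nitric oxide synthase, at 1.202 to 2.81 CPM in saline and 3.22 to 6.77 CPM in NanoTLZ tumors (1.40, edgeR adjusted p = 0.552). Ces1g was at 0.286, 0 and 0 CPM in saline, 1.5997, 0.109 and 0.433 CPM in i.v. TLZ, and 6.35, 1.42 and 1.97 CPM in NanoTLZ tumors.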
